A study of Mus musculus with 18 samples.

Results

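Chromatin binding of the transcription factor Mef2c was compared between mouse cardiomyocytes with a targeted G9a gene and control cardiomyocytes. The regions described are all 532522 regions of the authors' deposited Mef2c list on chromosomes 1 to 19, out of 2377384 regions in the lists of the study's 4 targets (Mef2c, G9a, H3K9me2 and H3K27me3). No measured value was used to pick among them. The list itself compares the genotypes and is called a list of differential peaks, so the direction of a listed region is a description, and sequence outside the list has no value. Both groups were of strain C57BL/6J and both carried the alphaMHC-MerCreMer transgene in the +/- state. MerCreMer is a tamoxifen-inducible form of Cre recombinase, and the promoter of the alpha myosin heavy chain gene, Myh6, drives it in cardiomyocytes. The control group (here Cre) had the transgene alone, and the other group (here KO) was also G9a flox/flox, so that the recombinase can cut Ehmt2, the gene of G9a. The sources used here give neither age nor tamoxifen schedule. The cells were a cardiomyocyte-enriched preparation, and in any other heart cells that remained the transgene is not expected to act. Each group had 2 Mef2c libraries, described as biological replicates, made with the Abcam antibody ab43796. They are 4 of the study's 18 libraries.

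Mef2c belongs to the MEF2 family of MADS-box transcription factors, which bind an A/T-rich site as dimers and switch on genes of the sarcomere, of energy metabolism and of growth in heart and skeletal muscle. Class IIa histone deacetylases hold MEF2 factors in a silent state, while calcium signals through CaM kinases and calcineurin, and the kinases p38 and ERK5, release or activate them. G9a places mono- and dimethyl groups on lysine 9 of histone H3, a mark linked to silent genes, and has been described to methylate the family member MEF2D in skeletal muscle cells. The comparison asks where Mef2c signal differs when G9a is targeted in cardiomyocytes.

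The promoters below show the sequence under several of the regions that the results describe. Each runs from 250 bases before to 50 bases after an annotated start, in the direction of transcription, is taken from RefSeq (GRCm38.p6, the build of the deposited regions) and lies wholly inside a listed Mef2c region. Mef2c and Mef2b are shown because the factor's own gene family was listed, and Nppa, the gene of atrial natriuretic peptide, because it is a MEF2 target of the heart. Mylk4 (a myosin light chain kinase), Alpk3 (a kinase of the sarcomere) and Myom3 (an M-band protein) were chosen after their values were seen, as muscle genes whose promoter holds the MEF2 consensus. Capitals mark that 10-base consensus, which starts 103 bases before the start in Mylk4 and 35 bases before it in Alpk3 and Myom3. The first 3 windows hold no match and have no capitals.
Mef2c promoter, chr13:83523406-83523705, plus strand: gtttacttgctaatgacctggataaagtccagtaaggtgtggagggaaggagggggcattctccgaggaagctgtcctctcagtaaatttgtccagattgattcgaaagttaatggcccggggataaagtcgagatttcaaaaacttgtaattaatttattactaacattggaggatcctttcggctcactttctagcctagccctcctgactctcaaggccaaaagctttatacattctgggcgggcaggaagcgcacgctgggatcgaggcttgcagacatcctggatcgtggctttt
Mef2b promoter, chr8:70152511-70152810, plus strand: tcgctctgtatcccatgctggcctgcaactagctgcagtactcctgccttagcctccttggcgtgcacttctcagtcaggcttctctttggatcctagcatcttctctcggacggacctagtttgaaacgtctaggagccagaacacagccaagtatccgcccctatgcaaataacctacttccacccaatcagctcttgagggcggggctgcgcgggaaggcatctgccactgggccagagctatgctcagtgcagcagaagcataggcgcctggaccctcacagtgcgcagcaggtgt
Nppa promoter, chr4:148000472-148000771, plus strand: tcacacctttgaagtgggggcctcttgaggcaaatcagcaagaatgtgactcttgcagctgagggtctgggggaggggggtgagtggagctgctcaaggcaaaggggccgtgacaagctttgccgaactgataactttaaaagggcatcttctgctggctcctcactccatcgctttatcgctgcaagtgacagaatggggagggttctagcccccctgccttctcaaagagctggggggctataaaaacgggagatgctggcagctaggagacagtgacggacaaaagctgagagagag
Mylk4 promoter, chr13:32783915-32784214, minus strand: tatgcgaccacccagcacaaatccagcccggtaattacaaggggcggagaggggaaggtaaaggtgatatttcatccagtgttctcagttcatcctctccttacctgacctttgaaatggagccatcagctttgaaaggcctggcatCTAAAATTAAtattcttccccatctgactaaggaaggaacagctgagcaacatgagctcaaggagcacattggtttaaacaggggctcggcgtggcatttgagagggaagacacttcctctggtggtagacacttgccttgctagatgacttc
Alpk3 promoter, chr7:81057350-81057649, plus strand: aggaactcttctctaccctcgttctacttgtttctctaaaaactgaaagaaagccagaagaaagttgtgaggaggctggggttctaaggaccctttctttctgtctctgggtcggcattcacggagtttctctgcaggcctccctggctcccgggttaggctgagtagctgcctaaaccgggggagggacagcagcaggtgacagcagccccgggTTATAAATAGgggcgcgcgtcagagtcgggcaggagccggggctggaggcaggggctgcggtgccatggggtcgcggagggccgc
Myom3 promoter, chr4:135759465-135759764, plus strand: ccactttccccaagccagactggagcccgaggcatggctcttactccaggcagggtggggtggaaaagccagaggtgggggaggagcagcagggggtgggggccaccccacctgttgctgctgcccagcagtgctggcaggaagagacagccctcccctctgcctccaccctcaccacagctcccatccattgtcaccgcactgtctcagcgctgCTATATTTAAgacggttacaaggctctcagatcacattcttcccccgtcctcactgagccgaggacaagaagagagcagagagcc

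The authors' deposited list gives 4 values for each region, 2 for Cre and 2 for KO, on a scale that the sources used here do not state. They are called first and second Cre and KO library, without a known link to the replicate numbers of the labels, and the depth behind them is unknown. Signal per kb is the deposited value divided by the region's length. The summed deposited values were 59015489 and 56943037 in the Cre libraries against 44166378 and 48841905 in the KO libraries. Values of 0 were found at 3260 and 2363 regions in Cre and at 10104 and 5673 regions in KO. Over the 532522 regions, Spearman's rho was 0.526 between the Cre libraries, 0.354 between the KO libraries and 0.048 to 0.102 across genotypes, as a description of regions that were listed for a difference. Over Ehmt2, the targeted gene (chr17:34898463-34914073), and 2 kb to either side of it lay 9 regions, 3 lower and 6 higher in KO. The longest, chr17:34905101-34908450, had values of 1082 and 777 in Cre against 830 and 304 in KO, which overlap. At chr17:34902751-34903550, also inside the gene, the values were 167 and 125 against 178 and 3, so that the first KO library was at the Cre level and the second nearly at 0. The Mef2c values at Ehmt2 thus differed between the KO libraries and were not used to check the deletion.

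Mef2c signal was lower in KO at most listed regions. The KO mean was under the Cre mean at 328422 regions (61.7%) and over it at 204100 (38.3%). Both KO values lay under both Cre values at 227215 regions (42.7%) and over both at 123801 (23.2%), so that the groups were apart at 65.9% and overlapped at 34.1% of regions. At the regions lower in KO the median signal per kb was 193 and 184 in the Cre libraries and 79.5 and 85.5 in the KO libraries. At the regions higher in KO it was 93.3 and 91.1 in Cre against 176 and 203 in KO. The libraries of a genotype thus lay close together at the median in each class, as the plot of signal per kb by library shows. The classes were made from these same values, so the difference between genotypes within a class follows from the split. Mean signal was at least 105 per kb at every region, so a low genotype goes with a high one. The mirrored levels of the classes are therefore not a separate result. The median log2 ratio of the KO to the Cre mean (pseudocount 1) was -1.05 at lower and 0.95 at higher regions.

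**Figure D1:**
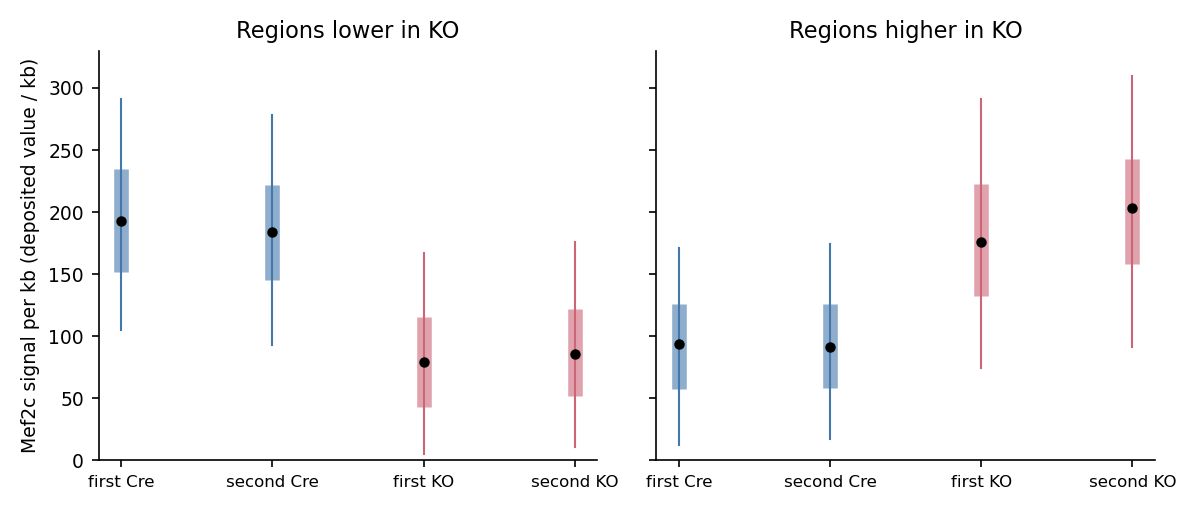
Mef2c signal per kb in each library (y axis, deposited value per kb) at regions lower (left) and higher (right) in KO; points are medians over regions, thick bars the middle 50% and thin lines the middle 90% of regions. Medians are 193 and 184 in Cre against 79.5 and 85.5 in KO on the left, and 93.3 and 91.1 against 176 and 203 on the right.

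No single region passed the test across the list. limma, fitted to log2 of the value plus 1 over all 532522 regions with Benjamini-Hochberg adjustment, gave 0 regions (0.0%) at an adjusted p under 0.05, and its smallest adjusted p was 0.399. At an unadjusted p under 0.05 it gave 60128 regions (11.3%), of which 45949 (8.63% of all) were lower and 14179 (2.66%) higher in KO. The split of these calls, 76.4% lower, went to 35.8% lower with 20562 lower and 36847 higher when libraries were scaled to the same median, while the share of all regions that were lower stayed at 61.7%. That scaling moved the median log2 difference of all regions by 0.32, from -0.81 to -0.49. With 2 libraries against 2 the smallest exact two-sided p for a single region is 0.333. Regions were listed because they differ, so limma's p-values are too small, and below the words lower and higher compare means and do not mark a test that was passed.

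Ratios were mostly moderate. The log2 ratio was between -1 and 0 at 146707 regions and between 0 and 1 at 114425, which together with the 151887 regions from -2 to -1 and the 80010 from 1 to 2 left 29828 regions at or under -2 and 9665 over 2. The classes at the extremes held somewhat shorter regions, with a lower median signal per kb over all 4 libraries. It was 124 at or under -2 and 125 over 2, against 138 and 142 in the classes next to 0. That average includes the low genotype, and the high genotype was not weak at the extremes. In the class at or under -2 the KO mean stood at 38.2 per kb against 215 in Cre. In the class over 2 the KO mean stood at 215 and the Cre mean far under it. In the classes next to 0 the high genotype stood lower, at 174.7 per kb (Cre, -1 to 0) and 178.9 per kb (KO, 0 to 1). Both KO values were 0 at 381 regions and both Cre values at 67. A region listed at 0 in a genotype has no fold given here, since the depth is unknown.

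The direction went with the length of the region. The median length was 650 bases for lower and 600 bases for higher regions, but 89.7% of the 513 regions over 2500 bases were lower, and the groups were apart at 93.2% of them. The share lower was 59.8% at 350 to 450 bases, 58.7% at 500 to 600, 60.1% at 650 to 800 and 66.1% at 850 to 1200 bases, and it was greater in each longer class. The longest region, chr7:11586101-11596500, lies in the stretch of the Zscan4 and vomeronasal receptor genes and had deposited values of 4390 and 3683 in Cre against 1135 and 1286 in KO. Its KO values were both far under the Cre values (log2 ratio -1.74). The same direction with length was seen for G9a (85.9% of 2394 regions over 2500 bases lower) and H3K27me3 (88.2% of 19432), and the opposite for H3K9me2 (17.4% of 1663 lower), each beside its own overall share of 61.6%, 63.2% and 39.7%.

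By mean signal the share lower went the other way. When regions were put in 5 equal classes by mean signal per kb, 68.0% were lower in KO in the weakest class (median 119) and 53.6% in the strongest (median 163), with a steady decline between them. Class and direction come from the same 4 values, and the classes were not remade without a library. Signal per kb spanned little: it was at least 105 at every region, 116 to 174 for the middle 90%, and 1696 at most. Only 210 regions exceeded 405 per kb, which is 3 times the median of 135, and 57.1% of these were lower. The difference in median signal per kb between lower and higher regions was small, -3.63, and it changed sign without either Cre library (0.43 without the first, 2.81 without the second).

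**Figure D2:**
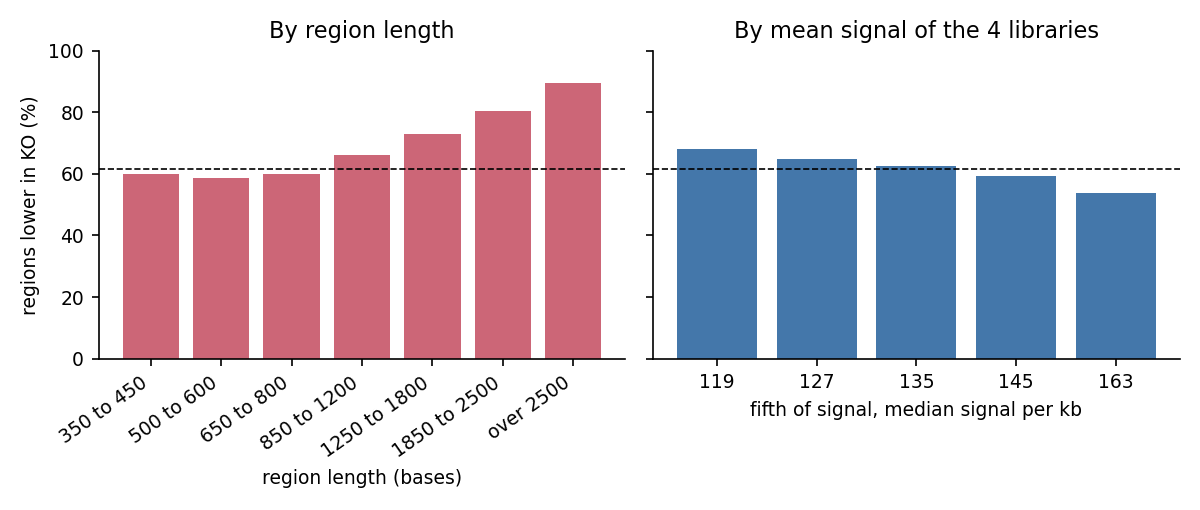
Share of Mef2c regions lower in KO (y axis, percent) by region length in bases (left) and by class of mean signal per kb (right, 5 equal classes named by their medians). The dashed line is the share over all regions, 61.7%; the share goes up to 89.7% in the longest class and down to 53.6% in the strongest class.

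The strongest regions, 5 in each direction by total signal, lay mostly outside genes, as did 60.8% of all listed regions. The strongest, chr16:3236901-3241950, 350448 bases from the nearest protein-coding gene, had deposited values of 5583 and 4929 in Cre against 4266 and 2670 in KO (log2 ratio -0.60). Those values lie apart, with the second KO library far below the first. The listed region directly beside it, chr16:3241951-3243400, is among the strongest higher regions. It had 1133 and 1439 against 1368 and 1872 (0.33), and the groups overlapped, so this place held both directions. The region chr7:59766701-59772300, 210195 bases from Snrpn, an imprinted gene of the Prader-Willi interval, had 4045 and 4253 against 2781 and 2835 (-0.56), with both libraries of each genotype close together. Among the strongest higher regions, 4 of 5 lay on chromosome 4, and 3 of these were nearest to zinc finger genes, such as the one in Zfp985 (1173 and 1498 against 1748 and 2252, log2 ratio 0.58, groups apart). At Zfp992 (1239 and 1209 against 1533 and 1202, 0.16) the groups overlapped.

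Lower regions lay somewhat farther from genes. The median distance to the nearer end of a protein-coding gene was 52242 bases for lower and 46744 bases for higher regions, and 37.9% of lower against 41.2% of higher regions overlapped a gene. Within genes 59.7% of regions were lower in KO and between genes 63.0%. By distance, the share lower was 61.6% up to 500 bases from a gene end, 59.3% at 1000 to 2000 bases, 61.0% at 10000 to 50000 bases and 63.0% beyond 500000 bases. These shares differ by few points, although the regions are many, and neighbouring regions are not independent.

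Around gene starts the listed regions formed a narrow peak. Of 20084 annotated starts (16456 genes, without chromosome 18, which the promoter table does not cover), 12.7% lay in a lower and 6.66% in a higher region at the start itself. At 200 bases inside the gene both shares were at their highest in the profile, 13.6% and 7.29%. At 1000 bases before the start they were 6.10% and 4.48%, and at 5000 bases before it 8.99% and 5.71%. Both directions therefore showed the same shape, a peak at the start between shoulders that are poorer in regions than sequence farther out. Listed regions covered 18.1% of the bases within 500 bases of a start and 15.3% of all other bases. Of the covered bases, 65.2% were in lower regions within 500 bases of a start and 62.2% within 10000 bases. These are shares of bases and not of regions.

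**Figure D3:**
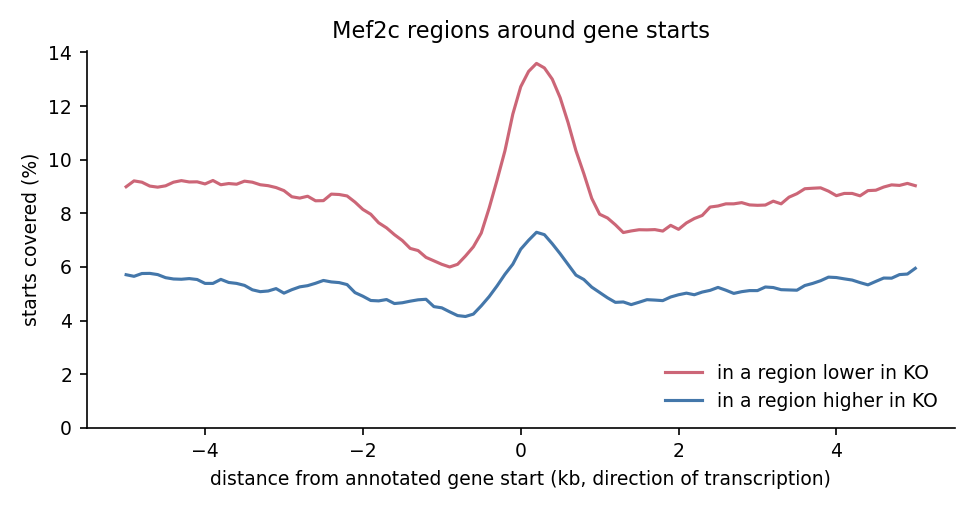
Share of 20084 annotated gene starts (y axis, percent) that lie in a Mef2c region lower or higher in KO at each distance from the start (x axis, kb, negative values before the start). Both curves peak just inside the gene, at 13.6% and 7.29%, and dip about 1 kb before the start.

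The MEF2 site was about as frequent in the promoters under these regions as in all promoters. The search was for the consensus known by the name MEF2, 10 bases on either strand, in windows of 300 bases. It was found in 2.65% of the 1357 promoter windows wholly inside a lower region, in 2.56% of the 704 inside a higher region and in 2.62% of all 20084 windows. A looser form, CTA and TAG with any 4 bases between them, which part of the consensus matches also fit, was found in 2.95%, 4.55% and 3.54%, and the E-box CACGTG in 7.00%, 5.68% and 7.89%. GC content was alike too, with a median of 57.7% in lower, 57.3% in higher and 57.0% in all windows. A match is a description of these letters and not evidence of binding, and the rest of the genome was not searched.

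Of the 54 promoter windows in listed regions that hold the consensus, 36 lay in lower and 18 in higher regions. All windows in listed regions were 1357 and 704. The muscle genes shown above, chosen after their values were seen, went in both directions. Mylk4 had deposited values of 78 and 94 in Cre against 37 and 48 in KO. Alpk3 had 130 and 163 against 75 and 111 (log2 ratio -0.65). Myom3 had 57 and 47 against 138 and 132 (1.36). In all 3 the groups did not overlap, with KO low at Mylk4 and Alpk3 and high at Myom3. Synpo2, an actin-bundling protein of the Z-disc, had 152 and 70 against 69 and 55 (-0.83). Meox2, a homeobox factor of muscle and vessels, had 185 and 134 against 93 and 50 (-1.15). In both the groups were apart, at Synpo2 only by 70 against 69, and the second Cre library was well under the first. The groups overlapped at others of the 54. Among these, Synpo2l had 29 and 225 against 260 and 191, and Clcn1 145 and 67 against 52 and 272.

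Genes were read through windows that reach 2 kb out from the ends of a gene's span on either side. Of 20661 protein-coding genes, 6340 (30.7%) touched lower regions only, 3388 (16.4%) higher regions only, 7650 (37.0%) both and 3283 (15.9%) none. The 34858 regions in these windows were lower in 60.5% of cases, with a median log2 ratio of -0.73. These shares are the background for the gene lists below, whose genes were chosen with earlier results known, so that a count near the background says nothing about the list.

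The MEF2 factor genes themselves did not go in a common direction. At Mef2c the region next to the span's beginning, chr13:83504101-83504700, had values of 106 and 96 in Cre against 20 and 51 in KO (log2 ratio -1.48; limma difference -1.62, SE 0.88, adjusted p = 0.399). The KO libraries were both low there. The inner promoter printed above lies in chr13:83523351-83524050, with 97 and 43 against 111 and 136 (0.81), where the KO libraries were both high. Over the whole span of 163.1 kb and its flanks, 9 regions were lower and 10 higher, 5 of each with the groups apart, and the log2 ratios ran from -2.19 to 3.71. Mef2c is the target of the antibody and its gene is a known site of control by MEF2 factors in muscle.

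Mef2a, the family member that is abundant in the adult heart, had 1 region in its windows, at chr7:67232301-67233250, with 141 and 52 in Cre against 217 and 262 in KO (1.30; limma difference 1.47, SE 0.62, adjusted p = 0.399). The KO libraries were both above the Cre libraries, and the Cre libraries differed from each other by more than the KO libraries did. Over the whole gene, 145.3 kb, and its flanks 5 regions were lower and 12 higher. Mef2b had a region over its start, chr8:70152501-70153200, with 87 and 112 against 210 and 130 (0.77), directly beside the region chr8:70151801-70152500 with 96 and 165 against 116 and 50 (-0.65). The first was apart and high in KO, the second overlapped. The third region of Mef2b, chr8:70167651-70168300, had 122 and 97 against 43 and 82 (-0.80), apart and low in KO. Mef2d had no listed region in its windows, and the 5 regions in its span and flanks were 3 lower and 2 higher.

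Among 20 regulators of MEF2 factors, 7 touched lower regions only, 3 higher only and 9 both, against 30.7%, 16.4% and 37.0% of all genes. Of the class IIa histone deacetylases that hold MEF2 silent, Hdac7 had one of its starts in a lower region with 206 and 129 in Cre against 60 and 9 in KO (-2.25), and Hdac9 in one with 130 and 64 against 37 and 39 (-1.33). At these regions of Hdac7 and Hdac9 both KO values lay under both Cre values. Another start of Hdac7 lay in a region with 251 and 98 against 49 and 121 (-1.03), where the groups overlapped. Hdac5 had 193 and 206 against 94 and 199 (-0.44), where the second KO library was at the level of Cre, and Hdac4 touched 1 lower and 2 higher regions. The coactivator and histone acetyltransferase Ep300 had its start in a lower region (179 and 129 against 37 and 89, -1.28) with the groups apart, and touched 3 higher regions besides.

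Activators of MEF2 also split. Map2k5, the kinase of ERK5, touched 3 lower regions, the most extreme with 87 and 253 in Cre against 46 and 24 in KO (-2.25). Mapk7, which is ERK5, had its strongest region at 160 and 190 against 109 and 99 (-0.74; limma SE 0.55, adjusted p = 0.400) and touched 3 lower and 2 higher regions in all. Camk2d, the main CaM kinase II of the heart, touched 3 higher regions, among them 1 with 24 and 86 against 114 and 113 (1.03), and Camk4 had 107 and 123 against 216 and 194 (0.83) at its strongest. At the Camk2d and Camk4 regions with these values the KO libraries were both above the Cre libraries. Another region of Camk2d had 18 and 61 against 59 and 131, where the groups overlapped. The other region of Camk4 had 110 and 110 against 18 and 53 (-1.60), apart in the other direction. Ncoa2, a coactivator, had 182 and 266 against 161 and 48 (-1.09) at one region and 23 and 36 against 71 and 46 (0.96) at another, both apart.

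Partners of MEF2 in the heart were 4 lower only, 3 higher only, 4 both and 3 without a region, of 14. Tbx5, a T-box factor of heart development, had 245 and 115 in Cre against 381 and 295 in KO at its strongest region (0.91). Hand1 had 82 and 117 against 137 and 176 (0.65), and Myocd, the coactivator of serum response factor, 126 and 87 against 157 and 164 (0.59), so that both KO libraries were high at these 3 regions, although Tbx5 and Hand1 also touched 2 lower regions each. Srf itself touched 2 higher regions, 1 of them with 113 and 171 against 297 and 208 (0.83). Esrrg, an orphan receptor of oxidative metabolism, touched 3 lower regions, with 193 and 230 against 72 and 73 (-1.53) at one of them, and Gata4 had 52 and 68 against 20 and 46 (-0.84).

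Most regions at known MEF2 targets of muscle were lower in KO. Of 26 genes, 10 touched lower regions only, 3 higher only, 7 both and 6 none, and 24 of their 34 regions were lower (70.6%, against 60.5% at all genes), with a median log2 ratio of -0.81 against -0.73. Without the first Cre library 55.9% of the 34 were lower, against 58.3% at all genes, so the share above the background depends on that library. The regions with the highest signal of the list lay at Myh6 and Myh7, the cardiac myosin heavy chain genes. At chr14:54967201-54968000, on the Myh6 span, the values were 1152 and 848 in Cre against 737 and 402 in KO (-0.81; limma difference -0.86, SE 0.41, adjusted p = 0.399), 7.27 times the median signal of all regions. At chr14:54968651-54970050, between Myh6 and Myh7, they were 1865 and 1025 against 1054 and 909 (-0.56), 6.42 times the median, and the groups overlapped.

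All 4 libraries were thus high at these neighbouring regions and the first Cre library was the highest. The alphaMHC promoter that drives the transgene is sequence from this neighbourhood and both groups carry the transgene, and the part of transgene copies in the signal was not tested. The next highest signal of the list was 1.44 times the median. It was at Hspb7, a small heat shock protein of the heart, with 172 and 103 against 13 and 180 (-0.51), and Smyd1, a muscle methyltransferase, had 170 and 48 against 145 and 169 (0.52), both with overlapping groups. The other region of Smyd1 had 438 and 187 against 109 and 96 (-1.60), with the groups apart and KO low. Casq2, the calcium store protein of the sarcoplasmic reticulum, touched 3 lower regions, the most extreme with 85 and 50 against 19 and 33 (-1.34), and Des, the muscle intermediate filament, had 51 and 90 against 23 and 4 (-2.30).

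MEF2 targets of signalling and metabolism were 4 lower only, 4 higher only, 2 both and 6 without a region, of 16. The split depends on the window: around annotated starts it was 7 lower only and 1 higher only, and 44.4% of regions were lower with windows of 1 kb against 64.7% with 2 kb. Nppa touched 3 lower regions, and that over its start had 212 and 224 in Cre against 174 and 68 in KO (-0.84), apart, with a wide gap between the KO libraries. Its neighbour Nppb, the brain natriuretic peptide gene, touched 1 higher region with 13 and 70 against 90 and 77 (0.99), also apart. Dlk1, an imprinted Notch-pathway ligand, had 194 and 279 against 23 and 43 (-2.80; limma difference -2.85, SE 0.70, adjusted p = 0.399), and Klf2, a flow-responsive factor, 232 and 174 against 54 and 125 (-1.17). Cpt1b, which brings fatty acids into mitochondria, had 165 and 89 against 170 and 425 (1.22) and Eno3, the muscle enolase, 172 and 152 against 266 and 466 (1.17). At these 4 regions the groups were apart, though at Cpt1b by a small margin. Of the other metabolic genes, Slc2a4 and Cox6a2 had no region and Adss1 touched 1 lower and 1 higher region.

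**Figure D4:**
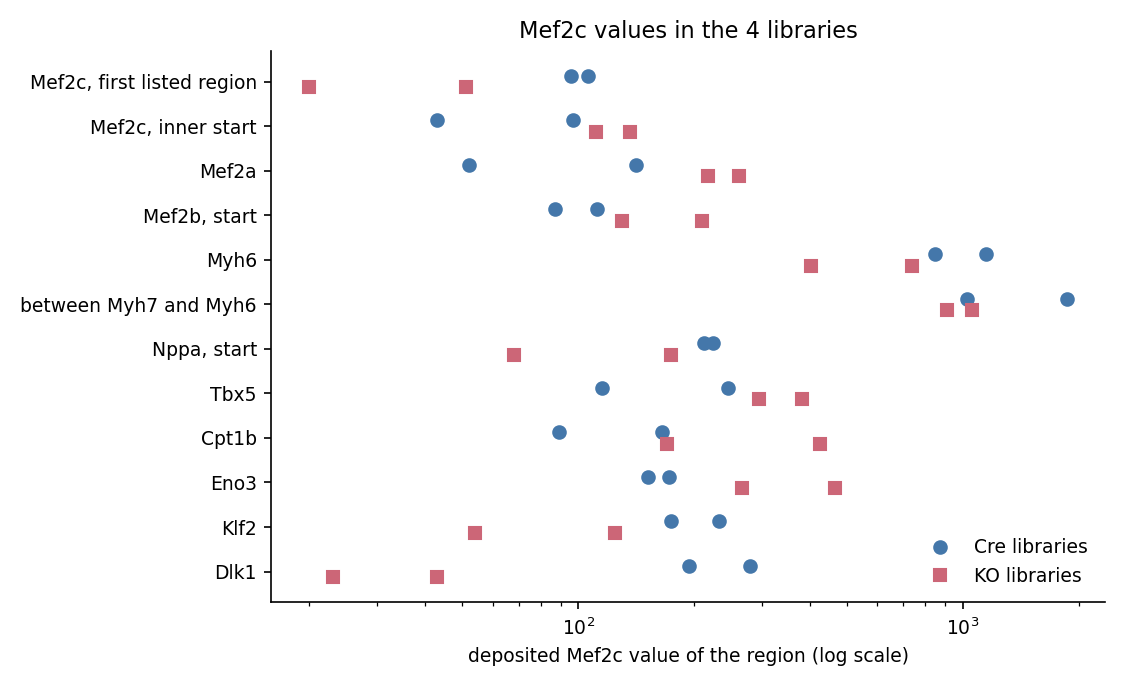
Deposited Mef2c values of the 2 Cre (circles) and 2 KO libraries (squares) at regions of 12 gene entries (x axis, log scale). KO lies to the left of Cre at Mef2c's first region, Myh6, Nppa, Klf2 and Dlk1 and to the right at Mef2a, Mef2b, Tbx5, Cpt1b, Eno3 and Mef2c's inner start; the groups overlap between Myh7 and Myh6.

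Most regions at calcium handling and conduction genes were higher in KO. Of 14 genes, 3 touched lower regions only, 5 higher only, 2 both and 4 none, and 6 of their 16 regions were lower (37.5%, against 60.5% at all genes), with a median log2 ratio of 0.77. Leaving out 1 library gave 31.2% to 43.8%, but with windows of 5 kb 51.2% of regions were lower. Ryr2, the calcium release channel, touched 2 higher regions, the more extreme with 3 and 20 in Cre against 83 and 126 in KO (3.08) and the other with 25 and 33 against 43 and 72 (0.96), both apart. Gja1, the main gap junction protein of the ventricle, had 132 and 46 against 93 and 198 (0.70), and Jph2, which ties the sarcoplasmic reticulum to the cell membrane, 92 and 0 against 88 and 161 (1.42), both with overlapping groups. Kcnq1, a potassium channel, had 115 and 97 against 50 and 28 (-1.42) at its strongest region, and the L-type calcium channel gene Cacna1c touched 2 lower regions, 1 with 103 and 36 against 12 and 34 (-1.56). At both of those the KO values were under the Cre values, though at Cacna1c only by 34 against 36. Kcnq1 touched 2 further regions that were higher and apart (90 and 114 against 148 and 220, and 98 and 89 against 264 and 112).

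Targets known from brain and bone had regions in both directions. Of 7 genes, 0 touched lower regions only, 1 higher only and 5 both. Sost, the bone inhibitor of Wnt signalling, had 184 and 43 against 239 and 134 (0.71) and Runx2, the bone master factor, 93 and 101 against 89 and 208 (0.61), and both overlapped.

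Regions at marker genes of other heart cells were read as well. Every cell of the preparation carries these genes, so the signal there cannot be assigned to the cell type of the marker. The median signal per kb was 134 at endothelial and 135 at immune markers, against 136 at all genes. Of 8 cardiomyocyte markers 7 had a region in their windows, and the summed signal per kb there was 460 and 306 in Cre against 315 and 244 in KO. Without Myh6 it was 156 and 124 against 149 and 126. At 10 endothelial markers it was 204 and 151 against 120 and 107, at 10 fibroblast markers 142 and 153 against 135 and 136, at 10 immune markers 153 and 165 against 94.7 and 132, and at 8 smooth muscle markers 147 and 146 against 141 and 142. Over the windows of all protein-coding genes it was 162 and 155 against 125 and 134, so that the KO libraries were lower there too. Of the endothelial regions 13 of 18 were lower, and of the immune regions 16 of 22, against 60.5% at all genes. At cardiomyocyte markers 8 of 13 regions were lower, at fibroblast markers 12 of 23 and at smooth muscle markers 16 of 28. Cdh5, the adhesion protein of vessels, touched 5 lower regions, the most extreme with 335 and 365 in Cre against 110 and 48 in KO (-2.13). Without Cdh5 the endothelial signal was 201 and 136 against 138 and 118, and the groups overlapped. Of the endothelial regions left without Cdh5, 8 of 13 were lower. Pecam1, another adhesion protein of vessels, touched 2 higher regions, Tek, Tie1 and Egfl7 touched both directions, and Kdr and Flt1 had no region. The part of other cells in the differences was not tested, and a smaller share of a cell type and less binding per cell cannot be told apart in a pooled preparation.

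Genes of skeletal muscle, 2 of which (Ckm and Acta1) also stand in the list of muscle targets, were 3 lower only, 1 higher only and 6 both, of 10. Tnnt3, fast troponin T, had 172 and 225 in Cre against 92 and 39 in KO (-1.58) and Myh4, a fast myosin heavy chain, 75 and 17 against 139 and 87 (1.28) at its strongest region, each apart. Myh4 touched another region with 154 and 173 against 34 and 18 (-2.61), also apart, so that the gene itself held both directions.

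The most extreme ratios were read in the highest of the 5 signal classes, at regions in gene windows with the groups apart. These regions were 2617 lower and 2111 higher. Those named below had 1.13 to 1.33 times the median signal of all regions. The rule took, in each direction, the 10 genes with the most extreme ratio at such a region. On the lower side these were Fgfbp1, Olfr69, Gm21319, Vmn1r200, Cul2, Wdr72, Ikzf4, Igfbp7, Dnal1 and Dlk1, with log2 ratios from -3.91 to -2.80. Fgfbp1, a carrier of fibroblast growth factors, had 285 and 149 in Cre against 2 and 25 in KO (limma difference -4.55, SE 1.27, adjusted p = 0.399). Olfr69, an odorant receptor gene, had 307 and 439 against 20 and 60, and Vmn1r200, a vomeronasal receptor gene, 269 and 298 against 28 and 37. Cul2, the scaffold of a ubiquitin ligase, had 260 and 157 against 9 and 42. In each the KO libraries were both near the bottom of the range.

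On the higher side the rule named Gpr89, Cngb1, Samd11, Plscr1, Rps6kc1, 4930522H14Rik, Atg2b, Tifa, Srebf2 and Slc32a1, with log2 ratios from 2.38 to 2.87. Srebf2, the master factor of cholesterol synthesis, had 19 and 36 in Cre against 188 and 109 in KO (2.39). Atg2b, a lipid transfer protein of autophagy, had 5 and 58 against 122 and 232 (2.45), and Rps6kc1, whose start lies in the region, 37 and 13 against 117 and 175 (2.50). At Cngb1, a channel subunit of photoreceptors, the Cre libraries were far apart, 2 and 80, against 201 and 356 in KO (2.73).

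Chromosome 4 stood out among the autosomes. There 54.1% of 30038 regions were lower in KO, against 59.2% to 65.7% on the other chromosomes, with chromosome 7 highest. The share of each library's summed signal that lay on chromosome 4 was 5.56% and 4.96% in Cre against 6.01% and 6.14% in KO, so the second Cre library was the lowest and both KO libraries were above both Cre libraries. Without chromosome 4, 62.1% of regions were lower.

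**Figure D5:**
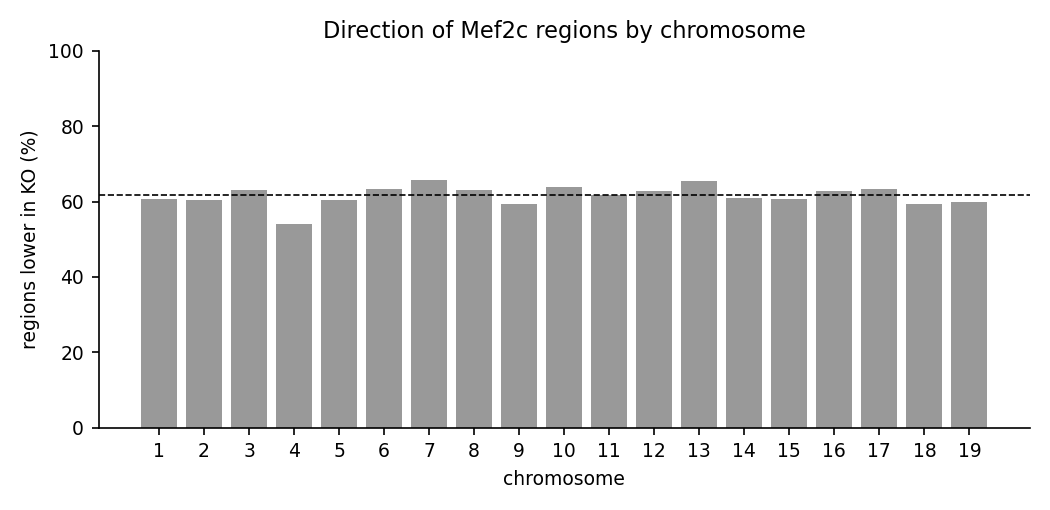
Share of Mef2c regions lower in KO (y axis, percent) on each of chromosomes 1 to 19, with the share over all regions, 61.7%, as a dashed line. Chromosome 4 is at 54.1% and chromosome 7 at 65.7%.

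In stretches of 1 Mb with at least 50 regions (2401 in all) the median share lower was 61.6%, and 37 stretches were under 50%, of which 22 lay among the 153 of chromosome 4. The stretch at 30 Mb of chromosome 17, which holds Btbd9, Glo1 and Dnah8, had 228 of 328 regions higher in KO, with a signal per kb of 123 and 122 in Cre against 189 and 199 in KO. The libraries of each genotype lay close together there, and the genotypes were apart. The stretch at 13 Mb of chromosome 17, with the Smok2 and Tcp10 genes, had 158 of 212 regions lower, at 218 and 298 against 106 and 123. The lowest share, 27.8% of 54 regions at the Scgb genes of chromosome 7, came with 60.2 and 170 in Cre against 145 and 171 in KO, where the first Cre library alone was low and the groups overlapped. At the Zscan4 genes of chromosome 7, 180 of 238 regions were lower (248 and 226 against 114 and 122). These stretches were picked as extremes of the share lower. Different numbers of DNA copies or different read mapping cannot be told apart from different binding in them, and neither was tested.

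Part of the Mef2c regions overlapped regions listed for the other targets. Of the Mef2c regions lower in KO, 34.7% shared at least 1 base with a lower and 15.3% with a higher G9a region, and of the higher ones 25.3% and 20.4%. As a share of G9a regions, 29.9% of the lower ones met a lower and 13.8% a higher Mef2c region. For H3K27me3, 33.2% of the lower Mef2c regions met a lower and 13.8% a higher region, and of the higher ones 24.4% and 16.9%. For H3K9me2, whose list holds more higher regions, the lower Mef2c regions met lower regions in 24.5% and higher regions in 30.4% of cases, and the higher ones in 15.8% and 35.1%. The G9a list held 380740 lower and 237044 higher regions, and the H3K27me3 list 317496 and 184513. Lower Mef2c regions were also longer, with a median of 650 bases against 600 for higher ones. The overlaps were not set against what class size and length alone would give. The libraries are separate for each target, but the labels do not say whether they share chromatin, and no test was made of these overlaps.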

How the data were processed

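Mef2c was profiled by ChIP-seq in 2 Cre and 2 KO libraries. The submitters' processing notes name BWA 0.7.10-r789, SAMtools 1.1 and the build mm10 (GRCm38). The deposited list gives, per region, 4 whole-number values of a scale other than a known unit; the sources used here name no region caller, normalization or use of input, so no count model was used and depth is unknown. The order of values (Cre, then KO) follows the list's name. The fifth number in each text cell was not used. Regions on X (1946), Y (137) and M (1) were left out.

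Log2 ratios of the means used a pseudocount of 1. limma 3.58.1 (R 4.3.3, empirical Bayes with trend, two-sided) was fitted to all regions and tested on simulated data. Groups were called apart where the ranges of Cre and KO values did not overlap. Gene spans (20661 genes) and promoters came from RefSeq GRCm38.p6; spans carry no strand, so windows of 2000 bases around both ends were used, and 147 of 148 genes of the 12 lists matched. Named genes were: per direction, the 10 with the most extreme ratio in the highest of 5 signal classes with groups apart; up to 4 per list by signal; all MEF2 factors and Ehmt2; and the 5 regions of highest total signal per direction. Other genes with values were chosen after these were seen. The regions and lists were chosen with earlier results of these data known. P-values measure only the spread between these libraries. Python 3.11.15 with pandas 2.3.3 was used; alternatives are given in the closing section.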

Additional observations from a re-analysis of the deposited data

How the results depend on the processing

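limma gave 0 regions at an adjusted p under 0.05 in every alternative run (pseudocounts of 0.5 and 10, a mean value of at least 50, both scalings, no trend, and without each library in turn), with smallest adjusted p-values from 0.0949 to 0.648; the reported fit gave 60128 at an unadjusted p under 0.05. Those unadjusted calls numbered 7956 and 9638 lower against 18238 and 20352 higher without the first or second Cre library, and 84946 and 104995 lower against 15292 and 9735 higher without the first or second KO library; the cause was not tested. The share of regions lower in KO, 61.7%, was 64.7% among regions with groups apart and 59.7% to 63.8% without 1 library. On chromosome 4, 54.1% became 51.1% to 57.2% without 1 library. The share lower over 2500 bases, 89.7%, was 88.3% under either scaling, 91.2% with groups apart and 89.5% to 89.9% without 1 library. The mean length of lower minus higher regions, 51.8 bases, was 61.2 with a mean value of at least 50 and 43.4 to 55.4 without 1 library. The median distance to a gene end of lower minus higher regions, 5498 bases, was 3702.5 to 6635.5 without 1 library. The median signal per kb of lower minus higher regions, -3.63, was -14.9 with libraries scaled to the same median, -14.5 with the same total and -17.4 to 2.81 without 1 library, positive without the first (0.43) or second (2.81) Cre library. Windows of 5 kb gave 3511 genes lower only and 1461 higher only, since more genes then touch both directions; without 1 library these were 5950 to 6725 and 3171 to 3703. Of 84 named regions, 58 had groups apart and so could not change sign when 1 library was left out; of the 26 others 11 did, and 1 region changed sign under scaling. Over the settings that leave out 1 library the ratio ran from -1.82 to 0.037 at Esrra, -3.31 to 0.39 at Hspb7, -4.19 to 0.24 at Eng, -0.45 to 1.45 at Tek and -0.026 to 0.33 at Zfp992, which changed sign without the first KO library. It ran from -0.76 to 1.13 at Slc8a1, -0.12 to 1.09 at Runx2 and -0.16 to 1.21 at Cd68, which did so without the second KO library, from -1.21 to 0.082 at Col10a1 (without the first Cre library), and from -0.11 to 1.69 at Smyd1 and -1.56 to 0.54 at Sox9 (without the second Cre library). Under scaling to the same median or total Gm21149 stood at 0.012 and 0.003. Settings that leave out a library assume that the lone value varies like the others. No paired analysis was possible because the deposited values carry no replicate number. The alternatives without chromosome 4 (62.1% lower) and with windows around annotated starts were chosen after seeing the data. Depth is unknown, so no interval for counting error is given.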
